A study of Mus musculus with 30 samples.

Results

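The exons described here are cassette exons of 52 nt or longer whose length is a multiple of 3 nt, so that skipping or including them leaves the downstream reading frame as it was wherever the exon is coding. They were taken from 4 tables of changed splicing events deposited by the authors. A member is an exon of a cassette event in any of the tables, with its length read from the middle block of the inclusion isoform and 1 entry per distinct position. This gave 689 member exons among 1730 distinct cassette exons, beside 699 of 52 nt or more that shift the frame and 342 that are shorter. The members lie in 493 genes and are 54 to 3804 nt long, with a median of 105 nt. Of the 689, 226 overlap another member that has a different start or end, so the members occupy 566 separate places in the genome.

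The tables compare neurons that lack the RNA-binding protein NOVA2 with control neurons of C57BL/6J mice. The groups were Nova2-cKO and wild-type cortex at embryonic day 18.5, sorted from Emx1-Cre mice and from Gad2-Cre mice, and the dissected Purkinje cell layer of Nova2-cKO and wild-type Pcp2-Cre mice at postnatal day 28. The labels give the Cre driver for the wild-type groups as well, so cKO and control share it. Emx1-Cre acts in the excitatory lineage of the cortex, Gad2-Cre in inhibitory neurons and Pcp2-Cre in Purkinje cells, while the dissected Purkinje layer also holds other cells in which the gene was not targeted. Each group had 3 samples, and RNA libraries were made after removal of ribosomal RNA. A further table compares Emx1-Cre controls with Gad2-Cre controls. Every inclusion level below is the authors' value for a whole group, the fraction of RNA that holds the exon, with no value per sample and therefore no error of its own. A listed event has, in the authors' deposited tables, a false discovery rate (FDR) of at most 0.05 and a difference between groups of at least 0.1, and its coverage is 20 or more. The Purkinje table does not say which of its groups is the cKO, so its groups are called group 1 and group 2.

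NOVA2 is a neuronal KH-domain protein that binds clusters of the RNA motif YCAY, where Y is C or U. As known from earlier work on NOVA proteins, binding inside or just upstream of an alternative exon tends to go with skipping of that exon, and binding in the intron downstream tends to go with inclusion. Frame-keeping cassette exons are the usual means by which neurons add or remove a short peptide segment in channels, adhesion molecules and scaffolds without truncating the protein.

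The sequences that carry the largest changes are given first, as read from GENCODE transcripts on GRCm38, the assembly of mm10, in the sense of the RNA and written as DNA. Capitals mark YCAY, searched as TCAC and TCAT, and as CCAC and CCAT, on the sense strand with overlapping matches counted. The first set holds the exons with the largest rise in Emx1-Cre cKO (Smarcc2 and Arpp21) and in Gad2-Cre cKO (Erbb4), and a pair among the members with the most motifs per length (Cadm1 and Neo1, chosen after their values were seen).
Smarcc2 exon of 66 nt, chr10:128488294-128488359, plus strand: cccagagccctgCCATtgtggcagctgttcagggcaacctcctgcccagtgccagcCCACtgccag
Arpp21 exon of 57 nt, chr9:112147423-112147479, minus strand: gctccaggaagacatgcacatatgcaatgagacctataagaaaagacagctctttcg
Erbb4 exon of 75 nt, chr1:68290243-68290317, minus strand: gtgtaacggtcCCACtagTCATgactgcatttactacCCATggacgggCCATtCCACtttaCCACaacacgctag
Cadm1 exon of 84 nt, chr9:47818734-47818817, plus strand: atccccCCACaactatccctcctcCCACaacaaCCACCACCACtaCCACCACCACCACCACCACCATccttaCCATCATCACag
Neo1 exon of 159 nt, chr9:58884470-58884628, minus strand: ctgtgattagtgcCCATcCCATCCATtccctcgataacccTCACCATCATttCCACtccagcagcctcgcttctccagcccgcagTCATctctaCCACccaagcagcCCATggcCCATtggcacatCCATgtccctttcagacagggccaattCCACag

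The next pair holds the exons of Nrcam and Aff3, with the largest falls in Emx1-Cre cKO. Neither contains a YCAY, and nor does the Arpp21 exon above, which rose. Others among the 10 largest falls do contain it, with 39 in the 1581-nt exon of Sorbs2, 3 in Map3k9 and 1 each in Ankrd26 and Jade3. The exon with the largest fall in Gad2-Cre cKO, in Hfm1, is partly outside coding sequence and is not printed.
Nrcam exon of 54 nt, chr12:44545379-44545432, plus strand: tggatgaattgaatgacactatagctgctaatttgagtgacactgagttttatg
Aff3 exon of 75 nt, chr1:38538927-38539001, minus strand: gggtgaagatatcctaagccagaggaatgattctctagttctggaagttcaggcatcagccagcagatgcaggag

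The next set holds exons listed in all 3 cKO tables that were higher in both cortical cKO groups. Their motif content runs from none in Grin1 and Epn1 to a dense group in the Gphn exon.
Gphn exon of 108 nt, chr12:78493950-78494057, plus strand: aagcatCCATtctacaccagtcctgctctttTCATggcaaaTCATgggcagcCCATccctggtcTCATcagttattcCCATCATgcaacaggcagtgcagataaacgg
Ank2 exon of 183 nt, chr3:126928665-126928847, minus strand: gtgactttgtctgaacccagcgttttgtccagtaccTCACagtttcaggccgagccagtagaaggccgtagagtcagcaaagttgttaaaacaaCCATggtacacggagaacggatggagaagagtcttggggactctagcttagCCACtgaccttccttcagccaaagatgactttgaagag
Epn1 exon of 75 nt, chr7:5093312-5093386, plus strand: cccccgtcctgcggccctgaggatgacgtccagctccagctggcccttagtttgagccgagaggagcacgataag
Agfg1 exon of 120 nt, chr1:82880008-82880127, plus strand: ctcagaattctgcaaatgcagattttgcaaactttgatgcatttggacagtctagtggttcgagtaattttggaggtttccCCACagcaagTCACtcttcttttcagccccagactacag
Smarce1 exon of 105 nt, chr11:99225038-99225142, minus strand: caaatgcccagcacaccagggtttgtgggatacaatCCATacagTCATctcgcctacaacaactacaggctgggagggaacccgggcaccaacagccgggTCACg
Ssbp4 exon of 60 nt, chr8:70599840-70599899, minus strand: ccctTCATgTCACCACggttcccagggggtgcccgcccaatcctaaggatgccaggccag
Camk2g exon of 69 nt, chr14:20745792-20745860, minus strand: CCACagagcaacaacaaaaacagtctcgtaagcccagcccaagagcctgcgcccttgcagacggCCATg
Trp53bp1 exon of 120 nt, chr2:121228588-121228707, minus strand: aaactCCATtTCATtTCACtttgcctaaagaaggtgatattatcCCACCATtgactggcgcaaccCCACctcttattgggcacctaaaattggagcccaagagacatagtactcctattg
Grin1 exon of 63 nt, chr2:25311343-25311405, minus strand: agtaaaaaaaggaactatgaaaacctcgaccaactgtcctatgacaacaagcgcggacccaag
Ccdc88a exon of 84 nt, chr11:29497343-29497426, plus strand: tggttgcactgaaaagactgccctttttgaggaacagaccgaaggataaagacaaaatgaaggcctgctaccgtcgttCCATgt
Ociad1 exon of 153 nt, chr5:73310274-73310426, plus strand: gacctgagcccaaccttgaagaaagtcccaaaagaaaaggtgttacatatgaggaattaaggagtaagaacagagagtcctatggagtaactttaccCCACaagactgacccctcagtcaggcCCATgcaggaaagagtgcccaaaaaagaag
Ktn1 exon of 69 nt, chr14:47704420-47704488, plus strand: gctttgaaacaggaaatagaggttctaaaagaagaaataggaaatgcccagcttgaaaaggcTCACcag
Kidins220 exon of 114 nt, chr12:25040456-25040569, plus strand: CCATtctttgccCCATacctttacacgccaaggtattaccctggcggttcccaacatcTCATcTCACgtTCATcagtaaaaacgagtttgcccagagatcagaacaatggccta

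The last set shows 3 of the exons listed in all 3 cKO tables that were lower in both cortical cKO groups, beside Nrcam above. The Epb4.1l3 form, like the 54-nt Nrcam form, is not annotated with these ends. The printed exons hold 0 to 2 motifs, while a 171-nt exon of Idh3b in the same class holds 6 and a 213-nt form of the Mcf2l exon holds 4.
Mcf2l exon of 93 nt, chr8:13013915-13014007, plus strand: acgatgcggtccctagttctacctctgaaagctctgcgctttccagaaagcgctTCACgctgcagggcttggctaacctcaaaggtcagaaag
Akap11 exon of 84 nt, chr14:78502939-78503022, minus strand: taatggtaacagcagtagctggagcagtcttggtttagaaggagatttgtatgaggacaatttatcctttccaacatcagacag
Epb4.1l3 exon of 117 nt, chr17:69283885-69284001, plus strand: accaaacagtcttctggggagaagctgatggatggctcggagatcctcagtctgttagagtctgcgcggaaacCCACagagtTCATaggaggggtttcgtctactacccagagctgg

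A length divisible by 3 does not by itself make an exon coding, and the annotation was read to see how far the description holds. Of the 689 members, 352 (51.1%) are annotated exons that are coding throughout, against 173 of 699 (24.7%) of the frame-shifting exons of 52 nt or more. The share was 56.1% of the 342 exons under 52 nt and 41.4% of all 1730 cassette exons, so it was not highest in the members. None of the 352 holds a stop codon in its annotated frame. That follows from how they were picked, as coding parts of protein-coding transcripts, and is no separate check. It held for all 716 cassette exons read in this way. A further 241 members are not annotated as exons with these ends, 55 are annotated but not coding, 40 are partly coding, and 1 is coding in decay transcripts alone. The junction that skips the exon is annotated for 595 members (86.4%, against 84.1% of all cassette exons). Among the 352 coding members, 139 begin with a whole codon, 65 have 1 base before the first whole codon and 148 have 2. These are 39.5%, 18.5% and 42.0%, against 40.2%, 20.8% and 38.9% of the 717 coding exons among all cassette exons. Of all members, 231 (33.5%) also take part in tandem cassette events and 42 (6.10%) in mutually exclusive events. Over all cassette exons these shares were 30.5% and 6.18%, so the members were near the background. The members at 54 nt, the shortest that the rule admits, numbered 18, and 7 of the 11 listed for Emx1-Cre neurons were lower in cKO, with a median absolute difference of 0.217. The 14 exons of 51 nt, just outside, had 4 of 7 lower in that table with a median of 0.384.

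In Emx1-Cre neurons, cKO and control differed at 361 member exons of 262 genes. Of these, 193 were lower in cKO and 168 were higher. Across all 870 cassette exons of the same table, 52.9% were lower in cKO, so the members' 53.5% is near the background. The median absolute difference was 0.225 for members and 0.228 for all cassette exons. A level of 0.1 or less was found for 11.9% of members in cKO and 7.20% in control, against 13.1% in cKO and 8.16% in control of all cassette exons. A level of 0.9 or more was found for 7.48% of members in cKO and 11.1% in control, against 7.70% in cKO and 9.54% in control of all. The level lay above 0.5 in cKO alone for 71 members (19.7%, against 19.5% of all) and in control alone for 61 (16.9%, against 17.1% of all). In these shares the members were near the background.

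**Figure D1:**
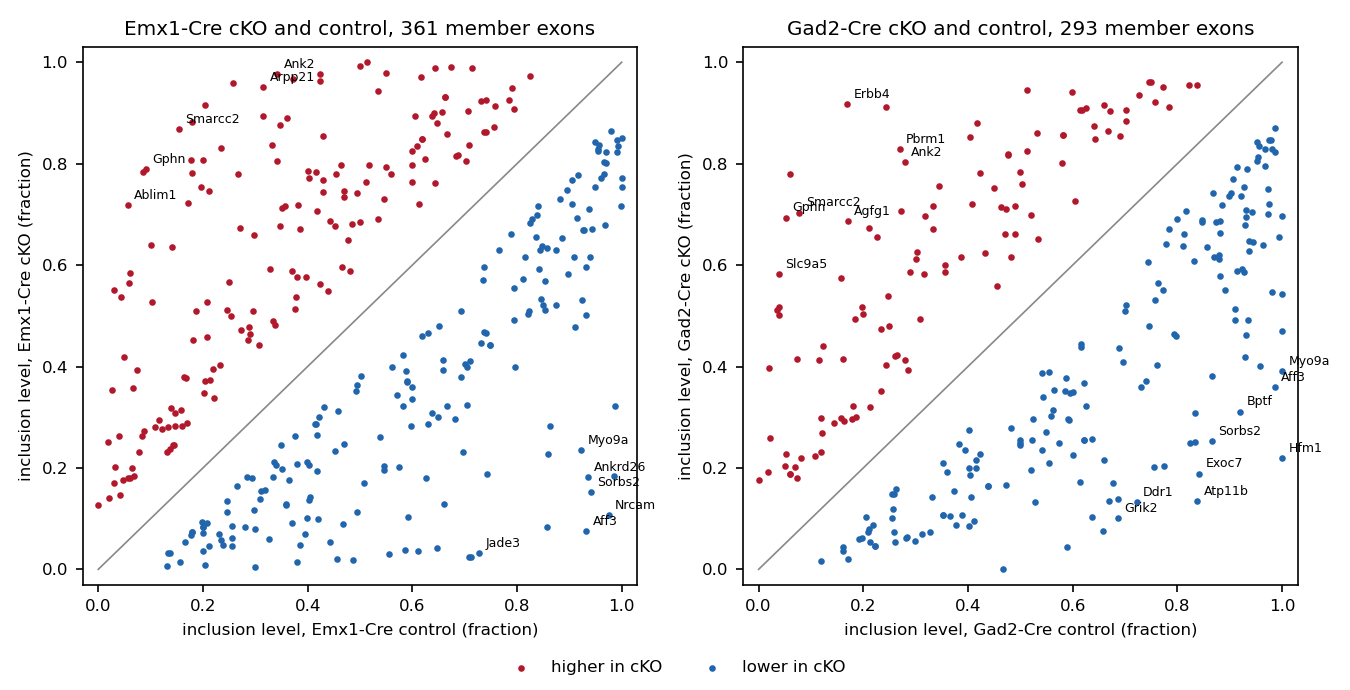
Authors' inclusion level (fraction) of each member exon in cKO (vertical axis) against control (horizontal axis), for Emx1-Cre (left) and Gad2-Cre (right). Each point is 1 exon, red where higher and blue where lower in cKO, the line marks equal levels, and the band around it is empty because listed differences are at least 0.1; Nrcam and Aff3 lie at lower right and Smarcc2 and Gphn at upper left.

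The largest falls in Emx1-Cre cKO were in a gene of cell adhesion and a gene of transcription. The 54-nt exon of Nrcam, an adhesion molecule of axons and nodes of Ranvier, had a level of 0.107 in cKO and 0.975 in control in the authors' deposited table (difference -0.868, authors' FDR 2.67e-69). The annotated form of that exon, which ends 3 nt further on and is 57 nt long, was at 0.185 in cKO and 0.986 in control. The 75-nt exon of Aff3, a nuclear factor of the AF4 family linked to transcription elongation, had 0.0756 in cKO and 0.932 in control (authors' FDR 1.92e-85). All of these exons were close to full inclusion in control neurons and mostly skipped in cKO. An overlapping 87-nt form of the Aff3 exon was at 0.0251 in cKO and 0.712 in control.

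Other falls touched the cytoskeleton and signalling. Sorbs2, an adaptor that links actin to adhesion sites, lost a 1581-nt coding exon, with 0.153 in cKO and 0.942 in control, and an overlapping 66-nt form, with 0.0836 in cKO and 0.857 in control. Myo9a, an unconventional myosin, had its 54-nt exon at 0.236 in cKO and 0.923 in control. Map3k9, a mixed-lineage kinase, had a 69-nt exon at 0.0236 in cKO and 0.709 in control. Ankrd26 (99 nt, 0.182 in cKO and 0.935 in control) and Jade3, a subunit of a histone acetyltransferase complex (78 nt, 0.032 in cKO and 0.727 in control), completed the 10 largest.

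The largest rises were exons that control neurons mostly skipped. A 66-nt segment of Smarcc2, a core subunit of the SWI/SNF chromatin remodelling complex, was at 0.868 in cKO and 0.154 in control (difference 0.714, authors' FDR 1.43e-50). Arpp21, a phosphoprotein that binds RNA in neurons, had a 57-nt exon at 0.916 in cKO and 0.203 in control, and its 60-nt form at 0.951 in cKO and 0.315 in control. Gphn encodes gephyrin, the scaffold that anchors glycine and GABA-A receptors at inhibitory synapses. Its 108-nt exon was at 0.881 in cKO and 0.180 in control (authors' FDR 6.76e-37), and the 105-nt form was at 0.789 in cKO and 0.0915 in control. Both Gphn forms hold the 7 motifs marked above.

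Ank2, the ankyrin that ties membrane proteins to spectrin, had a 219-nt exon form at 0.959 in cKO and 0.257 in control and a 183-nt form at 0.977 in cKO and 0.342 in control. Ablim1, an actin-binding LIM protein, had a 147-nt exon at 0.784 in cKO and 0.0854 in control, and a 141-nt form at 0.718 in cKO and 0.057 in control. Sorbs2 also had a 159-nt exon that rose, with 0.808 in cKO and 0.178 in control, so exons of this 1 gene moved in both directions. In all, 25 genes had members at 2 or more separate places in the Emx1-Cre table, and 13 of them had members in both directions. Cacna1e, Chl1, Grin1, Rims1 and Magi1 were among these 13.

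In Gad2-Cre neurons, cKO and control differed at 293 members of 217 genes, 181 lower and 112 higher in cKO. That is 61.8% lower, against 63.8% of all 702 cassette exons of the table, again near the background. The median absolute difference was 0.243 for members and 0.236 for all. Levels of 0.9 or more were found for 6.14% of members in cKO and 15.7% in control, against 4.84% in cKO and 15.0% in control of all cassette exons.

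The largest rise was in Erbb4, the neuregulin receptor of cortical interneurons, at the 75-nt exon that encodes the juxtamembrane segment known as JM-a. Its level was 0.918 in Gad2-Cre cKO and 0.170 in control (difference 0.748, authors' FDR 3.65e-244) at a coverage of 730. In Emx1-Cre neurons the exon was at 0.636 in cKO and 0.141 in control, at a coverage of 33. The direction was the same in both neuron groups, and the larger value comes with far deeper coverage. Sorbs2 had its 159-nt exon at 0.780 in cKO and 0.0592 in control and a 57-nt exon at 0.911 in cKO and 0.243 in control. Gphn (108 nt) had 0.693 in cKO and 0.0517 in control, and Smarcc2 (66 nt) had 0.704 in cKO and 0.0781 in control.

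Pbrm1, a bromodomain subunit of a SWI/SNF complex, had a 156-nt exon with 8 motifs at 0.829 in cKO and 0.270 in control. Slc9a5, a sodium-proton exchanger of neurons, had overlapping forms of 150 nt, with 0.582 in cKO and 0.0385 in control, and 78 nt, with 0.517 in cKO and 0.0385 in control. Agfg1, a protein with an ArfGAP domain that acts in endocytosis, had a 120-nt exon at 0.687 in cKO and 0.171 in control, and the 219-nt form of Ank2 was at 0.803 in cKO and 0.280 in control. Like the rises in Emx1-Cre neurons, these exons were minor forms in control and major or near-equal forms in cKO.

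The largest fall in Gad2-Cre cKO was a 114-nt exon of Hfm1, known as a meiotic helicase, with 0.219 in cKO and 1 in control at a coverage of 25 (authors' FDR 9.47e-09). Atp11b, a lipid flippase, had a 126-nt exon at 0.135 in cKO and 0.838 in control. Exoc7, a subunit of the exocyst, had a 69-nt exon at 0.189 in cKO and 0.842 in control, at a coverage of 26.7. The exons of Aff3 (75 nt, 0.360 in cKO and 0.986 in control), Sorbs2 (1581 nt, 0.253 and 0.867 in the same order) and Myo9a (54 nt, 0.391 and 1) followed. Thus 3 of the 10 largest falls in Gad2-Cre cKO were exons also among the 10 largest in Emx1-Cre cKO.

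The remaining largest falls were in signalling and chromatin genes. Bptf, the largest subunit of the NURF remodelling complex, had a 189-nt exon at 0.311 in cKO and 0.920 in control. Ddr1, a collagen receptor kinase, had a 111-nt exon at 0.133 in cKO and 0.722 in control. Grik2, a kainate receptor subunit, had an 87-nt exon at 0.101 in cKO and 0.687 in control, and Mink1, a kinase of the germinal centre kinase family, an 87-nt exon at 0.251 in cKO and 0.833 in control.

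Both cortical cKO tables listed 141 members of 99 genes, which is 39.1% of the Emx1-Cre members and 48.1% of the Gad2-Cre members. Over all cassette exons these shares were 35.5% of the Emx1-Cre exons and 44% of the Gad2-Cre exons. Of the 141, 59 were higher in both cKO groups and 81 were lower in both, so 140 moved the same way, beside 97.7% of the 309 cassette exons of every length in both tables. The median absolute difference was 0.313 in Emx1-Cre and 0.302 in Gad2-Cre neurons. Members listed in 1 cortical table and not in the other had smaller differences and lower coverage: in Emx1-Cre neurons the median absolute difference was 0.185 at a median coverage of 46.7, against 0.313 at 91.0 for shared members, and in Gad2-Cre neurons 0.210 at 37, against 0.302 at 72. All cassette exons showed the same, with 0.193 at 47.8 against 0.318 at 91.0 in Emx1-Cre neurons and 0.201 at 39 against 0.291 at 72 in Gad2-Cre neurons.

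**Figure D2:**
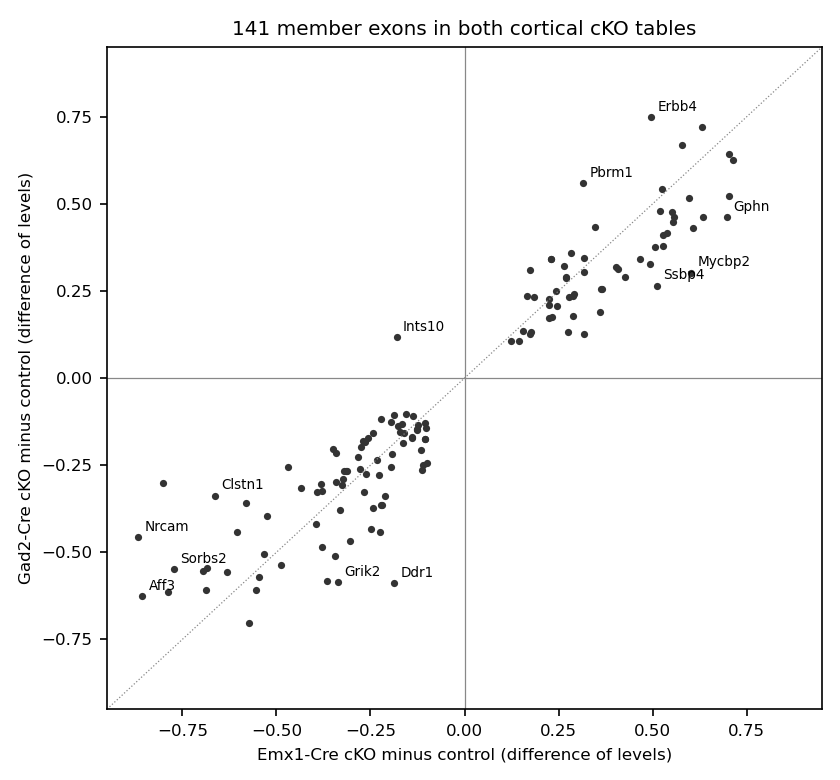
Difference of the authors' inclusion levels, cKO minus control, in Gad2-Cre neurons (vertical axis) against Emx1-Cre neurons (horizontal axis) for the 141 members listed in both tables. Each point is 1 exon, the dotted diagonal marks equal differences, names mark some exons with large or unequal differences, and Ints10 is the 1 point in a mixed quadrant.

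The size of the change differed between the neuron groups for some exons, though the tables allow no test of that difference. The absolute differences of an exon in the tables lay within 0.1 of each other for 84 of the 141. The change was larger in Emx1-Cre neurons by at least 0.2 for 10 exons, among them Nrcam, Clstn1, Mycbp2 and Ssbp4. Clstn1, a calsyntenin of synaptic adhesion and axonal transport, had its 57-nt exon at 0.323 in Emx1-Cre cKO and 0.986 in control, and at 0.656 in Gad2-Cre cKO and 0.993 in control. Nrcam (54 nt) was at 0.543 in Gad2-Cre cKO and 1 in control, beside 0.107 and 0.975 in the Emx1-Cre groups. The change was larger in Gad2-Cre neurons by at least 0.2 for 6 exons, among them Ddr1, Erbb4, Grik2 and Pbrm1.

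Ints10, a subunit of the Integrator complex, was the 1 member whose entries had opposite signs, and this came from which of its events had the highest coverage. Its 78-nt exon has 2 listed events in each cortical table that differ in the downstream exon they join. For the event that joins the near exon, the level was 0.462 in Emx1-Cre cKO and 0.280 in control, and 0.352 in Gad2-Cre cKO and 0.234 in control. For the event that joins the far exon it was 0.117 in Emx1-Cre cKO and 0.297 in control, and 0.0786 in Gad2-Cre cKO and 0.224 in control. Event by event, Ints10 therefore moved the same way in both neuron groups. A 165-nt exon of Pbrm1 had events of both signs in the Gad2-Cre table as well, with 0.611 in cKO and 0.301 in control for the deeper event and 0.415 in cKO and 0.745 in control for the other.

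All 3 cKO tables listed 24 members at 19 places in the genome. In cortex, 15 of the 24 were higher in cKO and 9 were lower, each with the same direction in Emx1-Cre and Gad2-Cre neurons. In the Purkinje table all 24 had the opposite sign when the difference is taken as group 1 minus group 2. Across the 40 members shared by the Purkinje table and either cortical table, 40 had the opposite sign as coded, and so did 74 of 79 cassette exons of every length. Which Purkinje group is the cKO is not stated, and the sign was not used to name the groups.

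**Figure D3:**
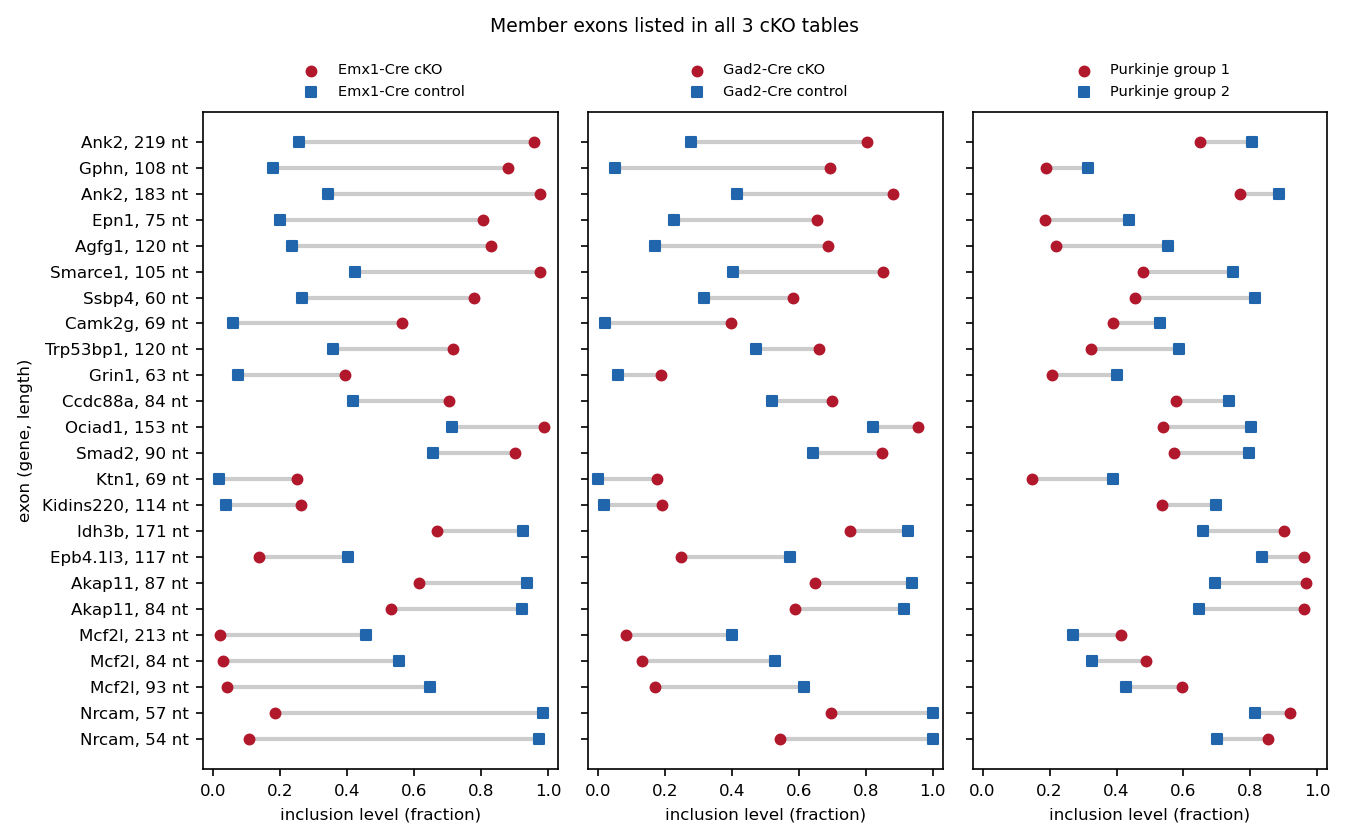
Authors' inclusion level (fraction) of the 24 member exons listed in all 3 cKO tables, 1 row per exon, in Emx1-Cre (left), Gad2-Cre (middle) and Purkinje (right) groups. Red circles are cKO or Purkinje group 1, blue squares control or group 2, and grey bars join them; the red circles lie right of the squares for the same exons in both cortical panels and left of them in the Purkinje panel.

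The exons in all 3 tables differ in how far the Purkinje layer stands from cortex. Ank2 (183 nt) was included at 0.768 in Purkinje group 1 and 0.886 in group 2, beside 0.977 in Emx1-Cre cKO and 0.342 in control. Gphn (108 nt) stayed low in the Purkinje layer, at 0.190 in group 1 and 0.314 in group 2. Grin1 encodes the obligatory NMDA receptor subunit, and its 63-nt exon encodes the N-terminal cassette called N1. That exon was at 0.392 in Emx1-Cre cKO and 0.0743 in control, at 0.188 in Gad2-Cre cKO and 0.0609 in control, and at 0.208 in Purkinje group 1 and 0.402 in group 2. All 6 values were below 0.5.

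Kidins220, a scaffold for neurotrophin receptors, had a 114-nt exon at 0.263 in Emx1-Cre cKO and 0.0398 in control, at 0.191 in Gad2-Cre cKO and 0.0185 in control, and at 0.536 in Purkinje group 1 and 0.697 in group 2. Camk2g, a subunit of the calcium and calmodulin-dependent kinase, had a 69-nt exon at 0.565 in Emx1-Cre cKO and 0.0580 in control, at 0.396 in Gad2-Cre cKO and 0.0208 in control, and at 0.388 in Purkinje group 1 and 0.529 in group 2. Embryonic control cortex thus mostly skipped these exons, while both Purkinje groups included them at intermediate or high levels. Age, region and the way cells were taken differ together between these tables and cannot be told apart.

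Among the other exons higher in both cortical cKO groups were Epn1, an endocytic adaptor (75 nt), with 0.807 in Emx1-Cre cKO and 0.2 in control, and Smarce1, another SWI/SNF subunit (105 nt), with 0.976 in Emx1-Cre cKO and 0.423 in control. Trp53bp1, a DNA repair factor (120 nt, 6 motifs), had 0.717 in Emx1-Cre cKO and 0.357 in control. Agfg1, Ssbp4, Ccdc88a, Ociad1, Ktn1 and Smad2 also rose in both. The exons that fell in both were those of Nrcam, Mcf2l, Akap11, Epb4.1l3 and Idh3b. Mcf2l, a guanine nucleotide exchange factor, had a 93-nt exon at 0.0425 in Emx1-Cre cKO and 0.647 in control and at 0.172 in Gad2-Cre cKO and 0.615 in control. Akap11, an anchor for protein kinase A, had an 84-nt exon at 0.531 in Emx1-Cre cKO and 0.923 in control and at 0.588 in Gad2-Cre cKO and 0.914 in control.

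The Purkinje table listed 125 members of 86 genes, 84 of them lower in group 1 than in group 2. This is 67.2%, beside 70.2% of all 262 cassette exons of the table. The median absolute difference was 0.179. A difference of 0.5 or more was found for 6 members (4.80%), beside 3.82% of all cassette exons listed there. In Emx1-Cre neurons this held for 47 of 361 members (13.0%), beside 12.1% of all cassette exons. In Gad2-Cre neurons it held for 32 of 293 members (10.9%), beside 10.5% of all cassette exons. The members were near the background in each comparison. Of the 125, 82 (65.6%) were listed in no other table, against 67.6% of all cassette exons of the table.

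Large differences in the Purkinje table were found in signalling and exocytosis genes. Arhgap26, a GTPase-activating protein encoded on chromosome 18, had a 276-nt exon at 0.0585 in group 1 and 0.743 in group 2 (authors' FDR 1.79e-62), and an overlapping 111-nt form at 0.0947 in group 1 and 0.748 in group 2. Syt7, a calcium sensor of exocytosis, had a 123-nt exon at 0.128 in group 1 and 0.642 in group 2. These exons were listed in no cortical table. Sh3pxd2a, a scaffold of podosomes (84 nt), had 0.391 in group 1 and 0.880 in group 2.

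In the other direction, Epha5, an ephrin receptor of axon guidance, had a 66-nt exon at 0.837 in group 1 and 0.0909 in group 2, at a coverage of 24. In the Emx1-Cre table that exon was at 0.102 in cKO and 0.399 in control at a coverage of 293. Ccdc85a (99 nt) had 0.766 in group 1 and 0.243 in group 2, Map7d2, which binds microtubules (99 nt), had 0.907 and 0.453 in the same order, and Adgrl2, a latrophilin adhesion receptor (129 nt), had 0.814 and 0.467. An 81-nt exon on the X chromosome with no gene name in the table had 0.636 in group 1 and 0.217 in group 2.

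Emx1-Cre controls and Gad2-Cre controls differed at 186 members of 150 genes, 106 of them lower in Emx1-Cre controls. That is 57.0%, beside 60.5% of all 526 cassette exons. Members had a median absolute difference of 0.228, against 0.203 for all cassette exons of the table. The table uses the same control samples as the cKO tables, and its control levels were identical to theirs at all 129 Emx1-Cre and all 143 Gad2-Cre cassette events in common.

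The largest differences between control groups were an exon of Nin and one of Exoc7. Nin encodes ninein, which anchors microtubules at the centrosome, and its 411-nt exon, annotated but not coding, was at 0.153 in Emx1-Cre controls and 0.833 in Gad2-Cre controls. The 69-nt exon of Exoc7 was at 0.183 in Emx1-Cre controls and 0.842 in Gad2-Cre controls. In Gad2-Cre cKO the Exoc7 exon was at 0.189, beside the 0.842 of its control, while the Emx1-Cre cKO table does not list it. Trrap, a subunit of histone acetyltransferase complexes, had a 54-nt exon at 0.371 in Emx1-Cre controls and 0.898 in Gad2-Cre controls, and this exon was at 0.588 in Emx1-Cre cKO. An exon of E130307A14Rik was lower in Emx1-Cre controls in a form of 207 nt, with 0.150 in Emx1-Cre controls and 0.655 in Gad2-Cre controls. Its annotated non-coding form of 189 nt was at 0.209 in Emx1-Cre controls and 0.706 in Gad2-Cre controls. Each form had a coverage of 22.

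Higher in Emx1-Cre controls were exons of Wdr45, an autophagy protein (189 nt, 0.600 in Emx1-Cre controls and 0.0811 in Gad2-Cre controls), Uggt2, a glucosyltransferase of protein folding (159 nt, 0.889 and 0.408 in the same order), Zfp326 (117 nt, 0.750 and 0.284) and Rims1. Rims1, a scaffold of the presynaptic active zone, had overlapping exons of 93 nt, with 0.538 in Emx1-Cre controls and 0.0698 in Gad2-Cre controls, and 69 nt, with 0.700 and 0.259 in the same order. In Emx1-Cre cKO these exons were at 0.261 and 0.405. Most of these events had low coverage, between 20 and 32 for the Wdr45, Uggt2, Rims1 and Zfp326 exons.

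The members were also grouped by 12 gene lists, with counts over member exons and no test of a list. The lists were chosen with earlier results of these data known, so their counts and medians are not independent evidence. Each list holds chosen genes and can leave out others of the same kind, so its counts describe the list alone. Overlapping forms of an exon count separately. Among all members, 53.5% were lower in Emx1-Cre cKO and 61.8% in Gad2-Cre cKO. The counts of genes with a member have no background of all genes, since the tables list changed events alone. Of 44 genes of synaptic and neuronal adhesion, 15 had a member, and their exons were split, with 5 higher and 6 lower in Emx1-Cre cKO and 6 higher and 8 lower in Gad2-Cre cKO. Their median absolute difference was 0.489 in the Emx1-Cre table, against 0.225 for all members, and 0.313 in the Gad2-Cre table, against 0.243 for all members. The medians of the lists in the Emx1-Cre table ran from 0.132 for small GTPase regulators and 0.185 for RNA-binding genes to 0.697 for inhibitory synapse genes. The value of 0.697 rests on 3 exons, among them overlapping forms of a Gphn exon. Beside Nrcam and Clstn1, Cadm3, a nectin-like adhesion molecule (102 nt), fell to 0.103 in Emx1-Cre cKO, against 0.592 in control. Its relative Cadm1 (84 nt), a synaptic cell adhesion molecule, rose to 0.753 in Emx1-Cre cKO, against 0.196 in control, and to 0.673 in Gad2-Cre cKO, against 0.212 in control. Chl1, a close homolog of L1, had a 72-nt exon that rose to 0.640 in Emx1-Cre cKO, against 0.102 in control, and a 162-nt exon that fell to 0.653, against 0.886.

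Of 42 genes of glutamate synapses and scaffolds, 12 had a member, with 10 exons higher and 6 lower in Emx1-Cre cKO and 9 higher and 4 lower in Gad2-Cre cKO. Grin1 carried members in both directions. Its 111-nt exon, which encodes the C1 cassette of the intracellular tail, fell to 0.478 in Emx1-Cre cKO, against 0.911 in control, while the 63-nt N1 exon rose as given above. The list of 22 inhibitory synapse genes had members in Gphn and Erbb4 alone, 3 exons higher and none lower in each cortical cKO group. The Gphn forms of 108 and 105 nt overlap, so these 3 exons lie at 2 places in the genome.

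Of 42 channel and pump genes, 8 had a member, with 2 higher and 7 lower in Emx1-Cre cKO and 0 higher and 4 lower in Gad2-Cre cKO. Cacna1e, the pore subunit of R-type calcium channels, had a 129-nt exon that rose to 0.968 in Emx1-Cre cKO, against 0.372 in control, and a 57-nt exon that fell to 0.680, against 0.968. The exon of Atp11b given above (126 nt) fell in Emx1-Cre neurons too, to 0.0370 in cKO, against 0.611 in control. In the 42 genes of axon guidance and migration 5 had a member, with 1 higher and 1 lower in Emx1-Cre cKO and 2 higher and 1 lower in Gad2-Cre cKO. Neo1 encodes neogenin, a receptor for netrins and repulsive guidance molecules, and its 159-nt exon rose to 0.992 in Emx1-Cre cKO, against 0.5 in control. Epha6, an ephrin receptor, had a 120-nt exon that fell to 0.0702 in Gad2-Cre cKO, against 0.312 in control.

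The cytoskeleton and motor list had the most members, 45 exons in 25 of 64 genes, with 12 higher and 19 lower in Emx1-Cre cKO and 11 higher and 14 lower in Gad2-Cre cKO. Presynaptic release and trafficking genes had members in 14 of 54, with 3 higher and 9 lower in Emx1-Cre cKO and 2 higher and 6 lower in Gad2-Cre cKO. Of the 47 listed chromatin and transcription genes, 9 had members, with 3 higher and 9 lower in Emx1-Cre cKO. In Gad2-Cre cKO 3 were higher and 7 lower. The list does not hold every such gene. The exons of Smarcc2, Smarce1, Pbrm1 and Aff4 that rose in both groups outnumber the 3 counted as higher. Aff3 and its relative Aff4 moved in opposite directions, since the 87-nt exon of Aff4 rose to 0.942 in Emx1-Cre cKO, against 0.535 in control.

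Small GTPase regulators had members in 10 of 47 genes, with 6 higher and 1 lower in Emx1-Cre cKO and 1 higher and 7 lower in Gad2-Cre cKO. The 20 members of this list, over all tables, lie at 13 places. No exon of the list was higher in 1 cortical cKO group and lower in the other, so these counts do not show opposite changes of the same exons. The list leaves out Mcf2l, the exchange factor given above, which had 0 exons higher and 5 lower in each cortical cKO group. It also leaves out Arhgef10l, which had an exon that fell in both groups. Within the list, the exon that fell in both was the 54-nt exon of Sipa1l2, a GTPase activator for Rap. It fell to 0.0187 in Emx1-Cre cKO, against 0.487 in control, and to 0.0730 in Gad2-Cre cKO, against 0.327 in control. Of the 64 listed RNA-binding and splicing genes, 8 had members, with 3 higher and 0 lower in Emx1-Cre cKO. In Gad2-Cre cKO 4 were higher and 0 lower. The list leaves out Rbmx and Sfswap, which had exons that fell in both cortical cKO groups. Tra2b, a splicing activator of the SR protein group, had a 246-nt exon that is not annotated with these ends and rose to 0.591 in Emx1-Cre cKO, against 0.329 in control. Celf1, another splicing regulator, had a 105-nt exon that rose to 0.494 in Gad2-Cre cKO, against 0.308 in control. An exon of Nova1, the paralog of Nova2 (102 nt), was at 0.377 in Emx1-Cre controls and 0.0933 in Gad2-Cre controls and was in no cKO table. Kinases and phosphatases had members in 8 of 47 listed genes, with 2 higher and 2 lower in each cortical cKO group. The list leaves out kinases named above, such as Map3k9 and Ddr1, which fell in both groups, and Camk2g, which rose in both. Brsk2, a kinase of neuronal polarity (165 nt), rose to 0.747 in Emx1-Cre cKO, against 0.212 in control, and in the Purkinje table Wnk1, a kinase of ion transport, had 6 overlapping forms lower in group 1, such as the 204-nt form with 0.279 in group 1 and 0.693 in group 2.

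Of 35 genes known as NOVA targets from earlier work, 20 had a member. This list too is not independent evidence, since it was drawn up from what is known of NOVA. Of the exons in these genes, 16 were higher and 9 lower in each cortical cKO group. The median absolute difference was 0.363 in the Emx1-Cre table and 0.329 in the Gad2-Cre table, against 0.225 and 0.243 for all members. No gene of the 8 marker lists for neuron classes, glia and endothelium had a member, so the members give no reading of cell composition.

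**Figure D4:**
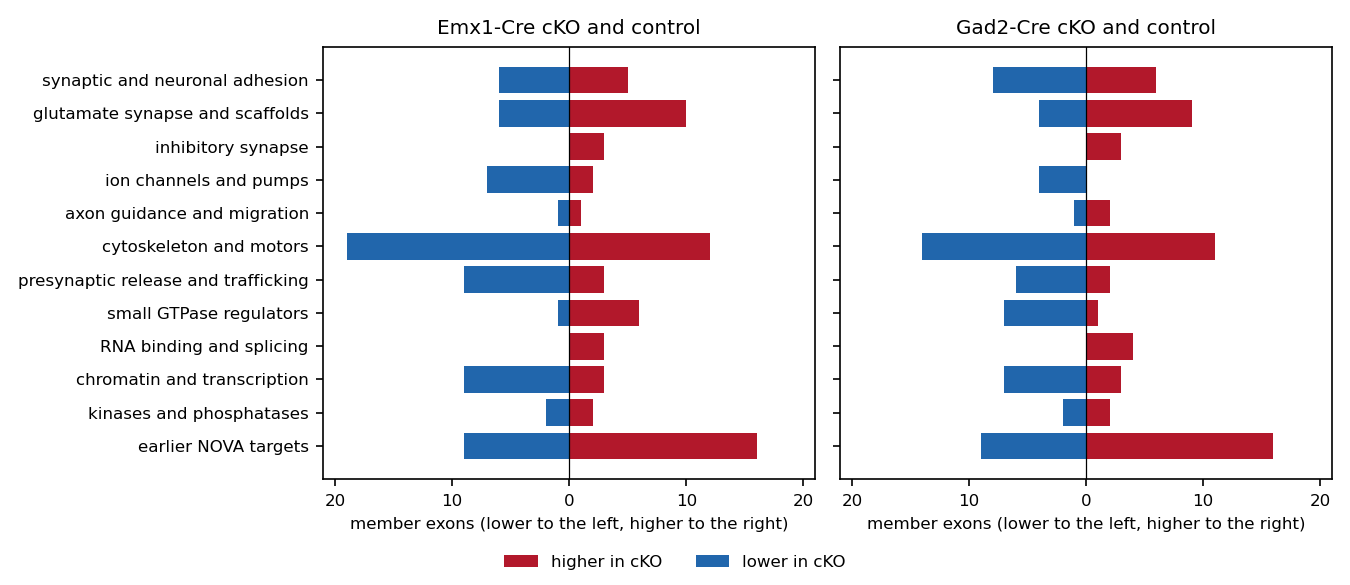
Number of member exons of each gene list that were lower (blue, to the left) or higher (red, to the right) in cKO, for Emx1-Cre (left) and Gad2-Cre (right). Overlapping forms of an exon count separately, and a gene can stand in 2 lists; the cytoskeleton list has the most exons, 12 higher and 19 lower in Emx1-Cre cKO.

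The YCAY content within the exons was compared between members higher and lower in cKO, as a description without a test. Sequence could be read for 591 members, of which 78.2% hold at least 1 YCAY, against 78.6% of all 1141 cassette exons of 52 nt or more with sequence and 69.6% of all 1440 of any length. In Emx1-Cre neurons, members higher in cKO had a median of 1.85 motifs per 100 nt (144 exons), and members lower in cKO had 1.39 (172 exons). In Gad2-Cre neurons the medians were 1.96 (101 exons higher in cKO) and 1.23 (156 exons lower in cKO). The share without a motif was 20.1% of higher and 26.2% of lower members in the Emx1-Cre table, and 13.9% of higher and 28.2% of lower members in the Gad2-Cre table. Frame-shifting exons of 52 nt or more had medians of 1.66 (higher) and 1.38 (lower) in the Emx1-Cre table and 1.77 (higher) and 1.42 (lower) in the Gad2-Cre table, so the order is not particular to the members.

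**Figure D5:**
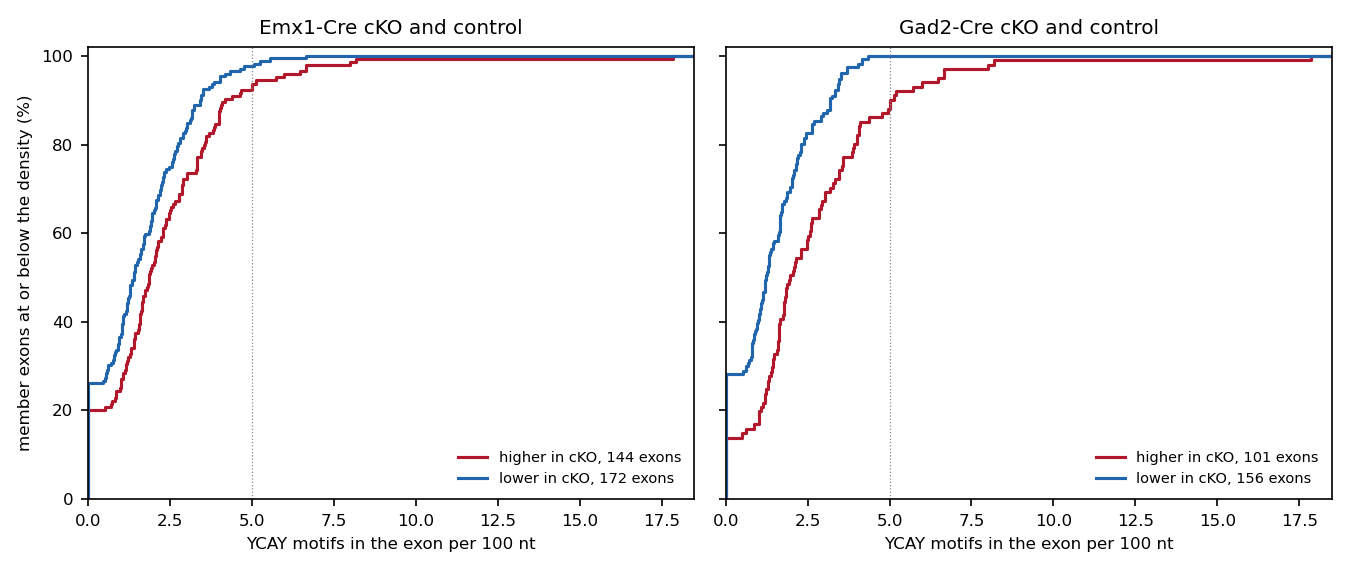
Share of member exons (%) at or below each density of YCAY motifs within the exon (motifs per 100 nt), for members higher in cKO (red) and lower in cKO (blue), in the Emx1-Cre table (left) and the Gad2-Cre table (right). The dotted line marks 5 motifs per 100 nt, reached by 11 higher and 4 lower members in the Emx1-Cre table and by 12 higher and 0 lower members in the Gad2-Cre table.

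At the dense end, 21 members reached 5 motifs per 100 nt, a limit set after the values were seen. In Emx1-Cre neurons 11 of these were higher and 4 lower in cKO, and in Gad2-Cre neurons 12 were higher and 0 lower. Across all cassette exons 6.73% of higher and 3.35% of lower exons reached this density in the Emx1-Cre table, and 8.81% of higher and 2.23% of lower exons in the Gad2-Cre table. The 84-nt exon of Cadm1 had 15 overlapping motifs, or 17.9 per 100 nt, in a repeat visible in the sequence above. The exon of Neo1 had 13 motifs and that of Erbb4 had 6. Among the 4 dense exons that were lower in Emx1-Cre cKO were overlapping forms of a Cacna1e exon, one of Camk2b and one of Nedd4l. In the Purkinje table all 6 dense members were lower in group 1, beside 9 lower and 1 higher among all cassette exons, of which 70.2% were lower in any case. The exons lower in cKO were read here for motifs inside the exon alone, since sequence of the flanking introns was not used.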

How the data were processed

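RNA-seq of 18 samples in 6 groups of 3 lies behind the 4 tables used here, and the other 12 of 30 samples of the series were not analysed here. Per the file headers, the deposited tables give for each splicing event an inclusion level of each group (a fraction from 0 to 1), a coverage value (a signal whose definition the headers do not give), a difference of the levels (handled as a score, group 1 minus group 2), a p-value and an FDR. The smallest coverage is 20. The labels name Quantas in the tables' titles, the submitters' processing notes name edgeR and kallisto without their roles, and no source used here describes the authors' test. The build is mm10. Groups were read from the order in the tables' titles, and differences are given as cKO minus control; the Purkinje table names no order. One pooled level per group allows no error, no test across samples and no check of single samples.

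Exon lengths came from the deposited isoform blocks. Where an exon had several events, the one with the highest coverage was used. Exons were matched by position to GENCODE M21 transcripts, from which sequences were read for 591 of 689 members; flanking introns and proteins were not used here. Named exons are the 10 largest differences in each direction in the Emx1-Cre and Gad2-Cre tables, the 5 largest in the Purkinje and control tables, those in all 3 cKO tables, and the 4 largest of each gene list. One exon that this rule names is not reported here. Cadm1 and Neo1 as printed sequences, the exons of Cadm3, Chl1, Aff4, Grin1 (111 nt), Cacna1e (57 nt) and Pbrm1 (165 nt), and the density limit were chosen after their values were seen. The members and lists were chosen with earlier results of these data known. Counting was tested on simulated data. Python 3.11.15, pandas 2.3.3, numpy 2.4.6 and scipy 1.17.1 were used. Alternatives were differences of at least 0.2, an FDR of 0.01 or less, coverage of at least 50, the event with the largest difference, exons coding throughout alone, and 1 exon per gene or place.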

Additional observations from a re-analysis of the deposited data

How the results depend on the processing

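The share of members lower in cKO ranged from 52.1% to 58.1% in Emx1-Cre neurons and from 58.2% to 63.1% in Gad2-Cre neurons over the alternatives run. The share lower in Purkinje group 1 ranged from 67.2% to 73.6%, and the share lower in Emx1-Cre controls from 55.0% to 62.3%. Of the members in both cortical tables, 100% moved the same way at differences of at least 0.2, at coverage of at least 50, and with 1 exon per gene, beside 99.3% as reported. This share was 98.6% with the event of the largest difference, where the 165-nt Pbrm1 exon also turned in Gad2-Cre neurons, to -0.330 against 0.310 as reported. It was 99.1% at an FDR of 0.01 or less, 98.9% for exons coding throughout and 99.1% with 1 exon per place. The pooled YCAY density in members higher in Emx1-Cre cKO was 2.59 per 100 nt at differences of at least 0.2, against 2.18 for all. Taking the event with the largest difference turned the sign of the Ints10 exon, to 0.182 in Emx1-Cre and -0.145 in Gad2-Cre neurons, because another event of the exon is then read. The alternatives for members in both cortical tables, and 1 exon per place, were chosen after seeing the data. Those on intron motifs were not run, since no genome sequence was used. No paired analysis was possible because the tables hold 1 level per group and no value per sample. Low coverage limits single levels, and their precision cannot be given.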
